A study of Mus musculus with 14 samples.

Results

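The H3K4me1 sites described here are those at the 3′ ends of protein-coding genes. A site was taken when its centre lay within 1 kb of the 3′ end of a protein-coding gene record and over 3 kb from every transcription start site (TSS). Of 160144 H3K4me1 sites in all, 160108 lay on chromosomes 1 to 19 and X, 115800 of these were over 3 kb from a TSS and are called distal, and 1531 met the rule. H3K4me1 was measured by ChIP-seq in iMEF, which are immortalized mouse embryo fibroblasts. All libraries came from NG3, 1 clone in which the endogenous Ash2l alleles had been inactivated by deletion of an exon and ASH2L was supplied from a lentiviral construct as a human protein fused to an FKBP degradation tag. The 12 ChIP libraries were 2 controls that received no dTAG and 2 libraries each after 30 min, 2 h, 4 h, 8 h and 16 h of dTAG-13, a compound that directs the fusion protein to degradation. The 2 input libraries came from the control and from cells at 16 h. The controls thus carried the same deletion and the same fusion protein as the treated cells. A single set of sites over all libraries was analysed, with a start and an end for each site and no value per library, so every result below describes where sites lay and none compares the time points. Of 10 fibroblast markers, 9 had a site within 1 kb of a TSS, among them Col1a1, Vim and Pdgfrb, and Col3a1 had none. Such a site was also present at 14879 of all 21755 protein-coding genes. In lists for other cell types it was present at 18 of 20 epithelial and 14 of 20 neuronal genes. The counts were 10 of 20 for striated muscle and 8 of 20 for immune genes. The marker count alone therefore does not identify the cells as fibroblasts.

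H3K4me1 is the monomethylated form of lysine 4 of histone H3. It is deposited largely by the KMT2 methyltransferases, of whose complexes ASH2L is a core subunit, and it is best known for marking enhancers and the flanks of active promoters. The 3′ end of a gene is where the last exon ends, where the nascent RNA is cleaved and polyadenylated at a signal hexamer, and where transcription runs on for some distance before the polymerase is released. Enhancers occur within genes as well as between them, and the stretch around a 3′ end can lie in either surrounding.

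The sequences at the centres of 6 sites downstream of a 3′ end are printed to show what such a site contains. Each is 200 bases of the plus strand of the mouse genome (mm10) around the centre of the site, and none of them overlaps an annotated exon. Capitals mark the words TGAGTCA (the motif of AP-1, the Fos and Jun family), GGAATG (TEAD), TGTGGT (RUNX) and CAGGGGGC (a part of the CTCF motif), each searched on both strands. The first 3 sites were the widest that lay downstream of a gene end under the rule for sequences. The other 3 were chosen after their values were seen, because their centres held AP-1 words.
Dnajb12, chr10:59899970-59900169: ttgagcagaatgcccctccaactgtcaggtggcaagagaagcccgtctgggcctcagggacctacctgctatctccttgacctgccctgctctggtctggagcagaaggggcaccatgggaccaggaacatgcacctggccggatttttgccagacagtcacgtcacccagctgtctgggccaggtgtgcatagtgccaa
Socs3, chr11:117965309-117965508: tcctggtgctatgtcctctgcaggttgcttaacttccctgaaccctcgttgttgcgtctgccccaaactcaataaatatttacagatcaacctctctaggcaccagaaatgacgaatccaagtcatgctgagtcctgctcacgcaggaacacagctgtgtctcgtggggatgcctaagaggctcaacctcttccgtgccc
Arid5a, chr1:36324568-36324767: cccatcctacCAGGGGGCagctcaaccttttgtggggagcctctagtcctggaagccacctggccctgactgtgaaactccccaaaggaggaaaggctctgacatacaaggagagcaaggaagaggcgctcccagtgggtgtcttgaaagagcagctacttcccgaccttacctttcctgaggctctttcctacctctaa
6430531B16Rik, chr7:139971503-139971702: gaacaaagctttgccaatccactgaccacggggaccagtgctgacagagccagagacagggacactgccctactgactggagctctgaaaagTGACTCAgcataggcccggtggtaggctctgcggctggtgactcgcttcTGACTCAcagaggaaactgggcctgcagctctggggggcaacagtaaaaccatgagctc
Ywhag, chr5:135907399-135907598: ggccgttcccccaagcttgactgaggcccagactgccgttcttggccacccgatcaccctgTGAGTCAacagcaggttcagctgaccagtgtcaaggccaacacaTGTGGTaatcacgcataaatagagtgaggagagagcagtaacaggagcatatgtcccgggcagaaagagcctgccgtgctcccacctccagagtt
Slc36a1, chr11:55236881-55237080: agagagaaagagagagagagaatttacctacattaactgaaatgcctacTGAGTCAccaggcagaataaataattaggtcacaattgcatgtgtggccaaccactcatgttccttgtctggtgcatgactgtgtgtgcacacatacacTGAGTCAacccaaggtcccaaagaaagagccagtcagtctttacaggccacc
Dnajb12 encodes a co-chaperone of the endoplasmic reticulum membrane, Socs3 an inhibitor of cytokine signalling through JAK and STAT, Arid5a an RNA-binding protein, Ywhag a 14-3-3 protein and Slc36a1 an amino acid transporter. In the 200 bases printed for each of the first 3 sites, the only word found was 1 CTCF word at Arid5a. The centres at 6430531B16Rik and Slc36a1 held 2 AP-1 words each, and that at Ywhag held 1 AP-1 and 1 RUNX word.

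Sites at 3′ ends were close to the number that the size of the windows gives. They made up 1.32% of distal sites (95% Wilson interval 1.26 to 1.39%, 1531 of 115800). If each distal site were placed uniformly on the eligible bases of its own chromosome, that is, on sequenced bases over 3 kb from every TSS, 1.22% or 1407 sites would meet the rule. The observed share was 1.09 times the placed one (interval 1.04 to 1.14). When all 160108 sites, promoters included, were placed on all sequenced bases, the ratio was 0.935. Sites within 3 kb of a TSS cannot meet the rule, so that ratio falls with the number of such sites and does not describe 3′ ends alone. With a window of 0.5 kb in place of 1 kb, the ratio among distal sites was 0.963. The direction of the small difference among distal sites therefore depended on the window. Intervals here and below cover the counting of sites only and treat neighbouring sites as independent.

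The density of sites per Mb of eligible bases placed the 3′ ends between genes and intergenic DNA. Within 1 kb of a 3′ end there were 59.7 sites per Mb (95% Poisson interval 56.8 to 62.8). The interiors of protein-coding genes held 74.96 per Mb (74.4 to 75.6), so that the density at 3′ ends was 0.796 times theirs. From 1 to 5 kb downstream the density was 65.9 per Mb (63.5 to 68.3) and from 5 to 20 kb downstream it was 59.4 (58.0 to 60.8). In the rest of the intergenic space it was 38.3 (37.9 to 38.7), and the density at 3′ ends was 1.56 times that. The terminal parts of genes were also less dense than gene interiors as a whole. When each gene was followed back from its own end, the stretch from 10 to 5 kb before the end held 57.7 sites per Mb (55.5 to 59.9) and that from 5 to 1 kb before it 54.9 (52.7 to 57.1).

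**Figure D1:**
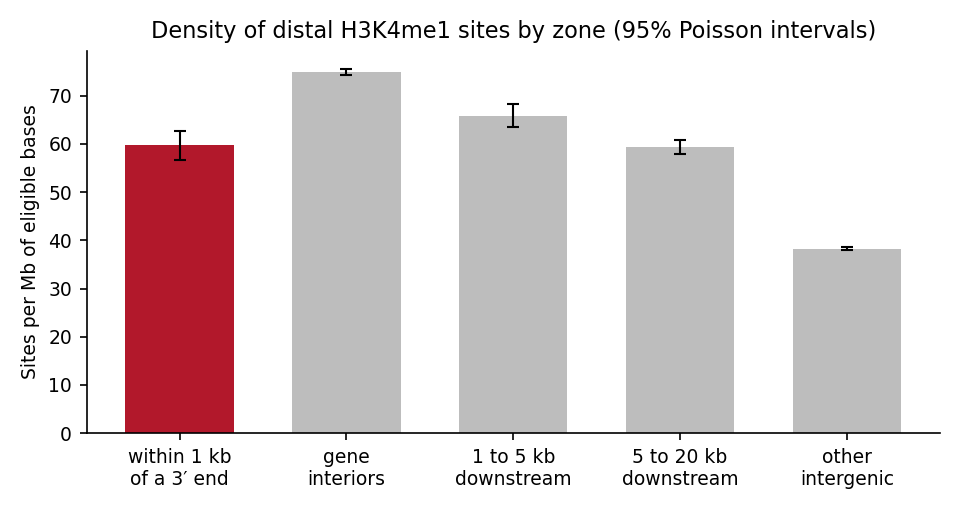
Distal H3K4me1 sites per Mb of eligible bases (y axis, linear from 0) in 5 zones of the genome (x axis), with 95% Poisson intervals as error bars. The windows at 3′ ends (red) had 59.7 sites per Mb, below gene interiors at 74.96 and above other intergenic DNA at 38.3.

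Sites were sparsest at the 3′ end itself. Of the 1531 sites, 281 were centred within 250 bp of the nearest end, 405 at 250 to 500 bp, 418 at 500 to 750 bp and 427 at 750 to 1000 bp. Per Mb of eligible bases these counts came to 42.9, 62.9, 65.7 and 67.8. Just outside the limit, 424 sites at 1000 to 1250 bp (68.0 per Mb) and 396 at 1250 to 1500 bp (64.1 per Mb) continued at the same level. On either side of the limit at 3 kb from a TSS, there were 148 sites within 1 kb of an end at 2500 to 3000 bp from a TSS and 144 at 3000 to 3500 bp, with 145 at 2000 to 2500 bp and 113 at 3500 to 4000 bp. Without that limit, 3005 sites lay within 1 kb of an end.

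The coverage profile showed the same dip in both directions from the end. Over all 21755 genes, 4.36% of the eligible bases in the last 100 bp before the end were covered by a site, the lowest value of the 200 bins within 10 kb on either side. The first 100 bp downstream were covered to 4.89%. At 500 to 1000 bp the coverage was 5.92% on the gene side and 6.43% downstream, and the highest value of the profile was 6.95%, at 1800 to 1900 bp downstream. Coverage of the 200 bp over the end was 0.748 times that of the 2 flanks at 500 to 1000 bp together.

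The dip was seen in each class of genes examined. The ratio was 0.748 for genes with a site at a promoter and 0.746 for genes without one, although their coverage differed. It was 0.749 for ends with a poly(A) signal hexamer (AATAAA or ATTAAA) in the last 40 bases and 0.745 for ends with neither. By gene length it was 0.821 under 10 kb, 0.841 at 10 to 30 kb, 0.644 at 30 to 100 kb and 0.648 at 100 kb and over, and the difference between length classes was not tested. Of the 20 chromosomes, 18 had a ratio below 1, with a median of 0.721, and on 14 the 200 bp over the end were covered less than each of the 2 flanks. Chromosomes 11 and X were at 1.02 and 1.00. The lowest ratio, 0.382 on chromosome 18, came in part from 21 protocadherin gamma genes that share 1 end, and was 0.576 with 1 gene per end position.

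Base composition changed over the same bases. GC content was 35.7% in the last 100 bp before the end and 41.9% in the first 100 bp downstream, against 44.6% and 44.4% at 500 to 1000 bp before and after it. Repeat-masked bases were 26.3% of the last 100 bp, against 18.5% at 500 to 1000 bp before the end and 28.1% at 500 to 1000 bp after it. The part of base composition in the dip was not tested.

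**Figure D2:**
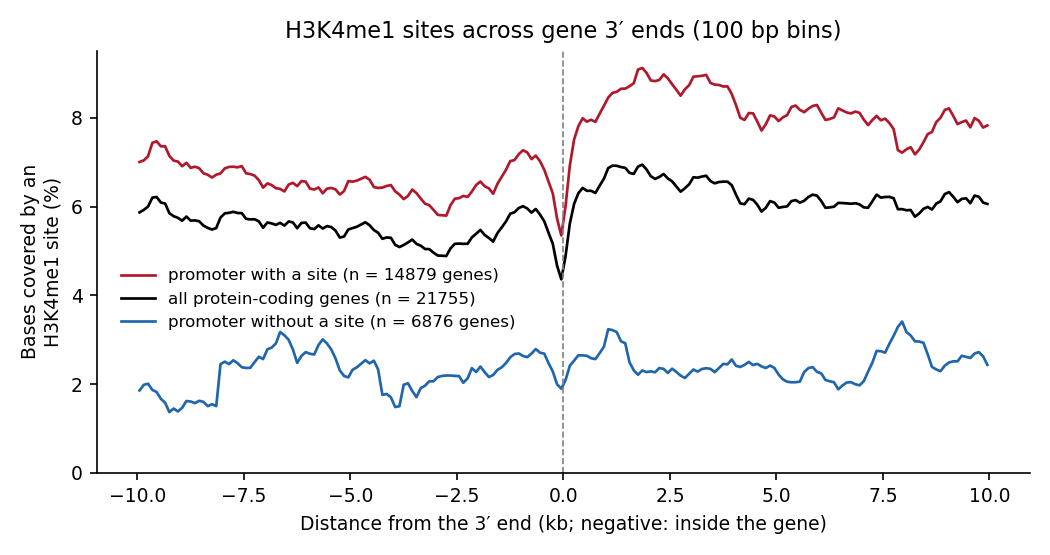
Share of eligible bases covered by an H3K4me1 site (y axis, %) in 100 bp bins by distance from the 3′ end (x axis, kb, negative inside the gene) for all protein-coding genes (black), genes with a site within 1 kb of a TSS (red) and genes without one (blue). All 3 lines fall at the end, and the red line lies above the blue one at every distance shown.

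**Figure D3:**
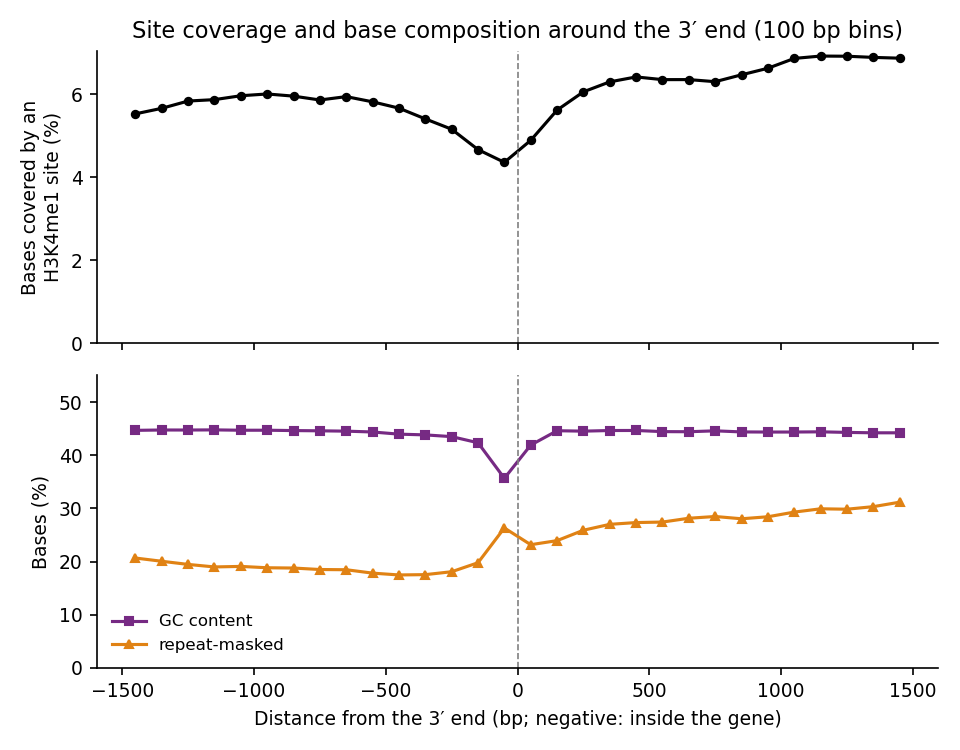
Upper panel, share of eligible bases covered by a site (y axis, %), and lower panel, GC content and repeat-masked share (y axis, %), in 100 bp bins over 1500 bp on either side of the 3′ end (x axis, bp). Coverage fell to 4.36% and GC content to 35.7% in the last bin before the end. In the bins on either side of it coverage was 4.67% and 4.89% and GC content 42.3% and 41.9%.

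More sites were centred downstream of the end than inside the gene. Inside were 693 sites (45.3%, interval 42.8 to 47.8%) and downstream 838, whereas 49.0% of the window bases lay inside. The last 1 kb of genes was covered to 5.48% and the first 1 kb downstream to 6.15%, a difference of -0.67 points. The difference was negative on 14 of the 20 chromosomes, with an SD of 1.58 points between them. That SD is the spread of single chromosomes and not an interval for the pooled difference. Chromosome 18, which holds the shared protocadherin end, was at -6.29 points. By the annotation of the gene, 492 sites (32.1%) were centred in the 3′ UTR, 88 (5.75%) in a coding exon, 105 (6.86%) in an intron and 8 in another exon. Of the downstream sites, 84 (10.0%) lay within another protein-coding gene. The end base itself was covered by 478 sites (31.2%, interval 28.9 to 33.6%), and 58 sites (3.79%) were within 1 kb of 2 or more ends.

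In width, sites at 3′ ends were much like other distal sites. Their median width was 595 bp (quartiles 349 and 1094, range 200 to 7898), and that of the other distal sites 555 bp (330 and 1007). The medians differed by 40 bp (interval 7 to 73), and by -1 bp with a window of 0.5 kb. Widths inside the gene (median 586 bp) and downstream (595.5 bp) were alike. At least 5 kb wide were 13 sites (0.849%, interval 0.497 to 1.45%), against 0.669% of other distal sites. The median distance to the nearest TSS was 7521 bp (quartiles 4617.5 and 14063.5).

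The motif content of these sites was also that of distal sites elsewhere. Of the 1531 centres of 200 bp, 165 (10.8%, interval 9.32 to 12.4%) held an AP-1 word, against 10.8% of other distal sites, a difference of -0.04 percentage points (95% Newcombe interval -1.50 to 1.63). In stretches of the same length 5 kb to either side of the sites the share was 3.33%, which was 7.45 points lower (5.83 to 9.20). TEAD words were in 14.8% of centres, 15.4% of other distal sites and 10.4% of the flanking stretches, and RUNX words in 18.4%, 17.8% and 15.1%. The CTCF word was in 1.11% against 0.719% of other distal sites (difference 0.39 points, -0.03 to 1.05). AP-1 words were in 11.7% of centres inside the gene and 10.0% of those downstream, a difference whose interval spanned both signs (-1.66 points, -4.86 to 1.45). The median GC content was 49.5%, against 48% in other distal sites and 46.5% in the stretches 5 kb away. A word match is a description of the sequence and not a binding site.

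Of the 21755 protein-coding 3′ ends, 13207 were eligible, meaning that at least 50% of the bases within 1 kb were sequenced and over 3 kb from every TSS. A site was present at 1382 of them, which is 10.5% (interval 9.95 to 11.0%). Another 95 ends with a site were not eligible. Among all ends, 1350 had 1 site, 122 had 2 and 5 had 3. Some genes share an end position with another gene (92 in all, many of them protocadherin and Ugt1a genes). With 1 gene per end position, 1363 of 13168 ends had a site (10.4%).

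Ends of genes with a site at a promoter had a site more often. The share was 12.4% (1169 of 9420) where a site overlapped the 1 kb around a TSS of the gene, and 5.62% (213 of 3787) where none did, a difference of 6.79 percentage points (5.77 to 7.75). Without olfactory and vomeronasal receptor genes, which are chemosensory families, the difference was 5.90 points (4.79 to 6.95). In a short gene a wide site could count both at a promoter and at the end, as at Socs3, so the 2 calls were not fully separate. The difference between genes with and without a promoter site was not particular to the end. For genes with and without a promoter site, the density was 82.5 (79.9 to 85.1) and 27.8 (25.8 to 30.1) sites per Mb at 5 to 10 kb downstream, 78.3 and 34.8 in the first 1 kb downstream, and 64.7 and 31.0 in the last 1 kb of the gene.

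In the same genes, ends had a site less often than the midpoint or a point downstream, and about as often as a point before the end. Among 4758 genes long enough for both windows, 11.1% had a site within 1 kb of the end and 13.8% within 1 kb of the gene's midpoint, and 95 had both. Among 4463 genes the shares were 11.0% at the end and 11.1% at 10 kb before it. Among 7305 genes they were 9.95% at the end and 12.1% at 10 kb downstream. These points were chosen after the profile had been seen.

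With genes that share an end counted separately, the longest and the shortest genes differed in opposite directions in the 2 promoter classes. Over all eligible ends the share with a site was 9.39% for genes under 10 kb, 10.7% at 10 to 30 kb, 10.3% at 30 to 100 kb and 11.8% at 100 kb and over, and the longest class exceeded the shortest by 2.37 points (0.66 to 4.13), though with a window of 0.5 kb the difference was -0.26 points. It was 0.60 points (-0.88 to 2.15) with sites over 1 kb from a TSS and 0.89 points (-0.71 to 2.53) with TSSs of protein-coding transcripts only, and both intervals include 0. Where a promoter had a site, the share was 14.4% in the shortest class, 12.8% and 11.5% in the middle classes and 11.8% in the longest, and the longest minus the shortest was -2.61 points (-5.03 to -0.25). Where it had none, the share was 4.90% in the shortest class, 5.74% at 10 to 30 kb, 4.70% at 30 to 100 kb and 11.4% (32 of 280) in the longest, so that the difference of 6.52 points (3.09 to 10.9) rested on the 280 longest genes. That difference was 5.41 points (1.83 to 9.87) without the chemosensory receptors. The higher share for long genes over all ends thus did not hold within the larger class. Genes that share an end, such as the protocadherin gamma genes, were counted separately here. With 1 gene per end position the difference over all eligible ends was 1.97 points (0.26 to 3.72). The difference by promoter site over all lengths was then 7.11 points (6.11 to 8.06), against 6.79. The length classes within the 2 promoter classes were not recounted in that way, so their intervals treat genes at a shared end as independent. The 32 of 280 may therefore repeat 1 shared end many times, and the size of the 6.52 points is uncertain. In the shortest class a wide site could also count at both a promoter and the end, as at Socs3. Genes with a site at the end had a median length of 28644.5 bp and those without 26438 bp.

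**Figure D4:**
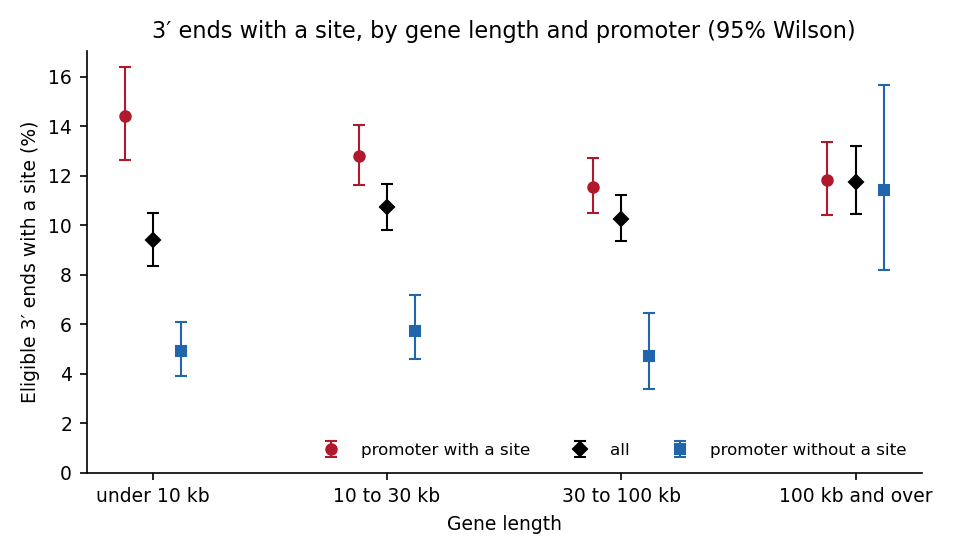
Share of eligible 3′ ends with a site (y axis, %) by gene length class (x axis) for all genes (black), genes with a site at a promoter (red) and genes without one (blue), with 95% Wilson intervals as error bars. The classes differed under 10 kb (14.4% and 4.90%) and met at 100 kb and over (11.8% and 11.4%). Genes that share an end position were counted separately.

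The surroundings of the end went with smaller differences over all eligible ends. Ends with a convergent neighbour within 5 kb had a site in 12.7% of cases and ends with a tandem neighbour within 5 kb in 13.03%. The share was 11.1% for ends inside another gene, 10.8% where the next gene lay 5 to 20 kb away and 9.14% where it lay beyond 20 kb. The convergent class exceeded the last by 3.60 points (1.93 to 5.39), and by 2.68 points (0.68 to 4.82) among genes with a promoter site. For ends inside another gene the share was 11.4% with a promoter site and 10.5% (37 of 352) without. The other classes without a promoter site had 4.12 to 6.59%. Genes that share an end were counted separately in these classes, among them 21 protocadherin gamma genes at 1 end with a site. The classes were not recounted with 1 gene per end position, so the 37 of 352 may repeat 1 end many times. Ends with a poly(A) signal hexamer had a site in 11.1% and ends without in 8.84% of cases, a difference of 2.21 points (1.06 to 3.31). That contrast was not split by promoter site. Plus and minus strand genes had 10.4% and 10.5%, and the number of exons moved the share only between 9.52% and 10.9%.

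Ends with a long last exon had few sites where the promoter had none. Among genes with a promoter site, the share was 12.4% both for last exons of 4 kb and over and for those under 0.5 kb. Among genes without a promoter site it was 6.18% for last exons under 0.5 kb and 0.959% (4 of 417, interval 0.374 to 2.44%) for those of 4 kb and over. Of these 417 genes, 270 were olfactory or vomeronasal receptor genes, 2 of which had a site. The other 147 also had 2.

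Gene lists were read against the share of 10.5% over all eligible ends. In transforming growth factor β (TGFβ) signalling, 6 of 17 eligible ends (35.3%, interval 17.3 to 58.7%) had a site. The ligand genes Tgfb1 and Tgfb3 had sites of 979 and 248 bp centred 765 and 926 bp downstream. Smad3, a receptor-activated transducer, had a site of 1275 bp in its 3′ UTR. The inhibitory Smad6 and Smad7 had sites 174 and 552 bp downstream of their ends. Ski, a corepressor of SMAD proteins, had 1 of 210 bp in its 3′ UTR.

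Growth factor receptor and immediate early genes also had high shares on small counts. Among receptor tyrosine kinases, 4 of 10 eligible ends had a site (40%, interval 16.8 to 68.7%): Fgfr1 in the 3′ UTR, and Fgfr2, Epha2 and Igf1r downstream, the last 2 with 2 sites each. Among immediate early genes, which are induced within minutes by growth factors, 5 of 10 eligible ends had a site (50.0%, interval 23.7 to 76.3%). They were Mafk, Klf6, Fosl2, Egr1 and Klf4, all centred downstream, between 223 and 985 bp from the end. The end of Myc, a growth-promoting transcription factor, was not eligible but had a site of 818 bp centred 617 bp downstream. The lists were chosen with earlier results of these data known, so the high shares of these 3 lists are descriptions, and no test of a list was made.

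Structural genes of fibroblasts were nearer to the share of all ends. For extracellular matrix genes it was 3 of 24 (12.5%), namely Fbn1 (fibrillin 1), Tnc (tenascin C) and Col1a1 (collagen I), the last with 2 sites. For contractile and cytoskeletal genes it was 3 of 14 (21.4%), namely the tropomyosin gene Tpm1, Tagln2 and Vim (vimentin). The ineligible end of Tpm2 had a site as well. Of the enzymes and subunits that write or erase H3K4 methylation, 1 of 11 had a site, and this was Kdm5a, an H3K4 demethylase. Collagens by symbol had 5 of 37 (13.5%).

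Genes of other cell types lay near or below the share of all ends. Neuronal genes had 1 of 14 (Map2) and epithelial genes 1 of 13 (Elf3). Immune genes had 0 of 8 (Wilson upper limit 32.4%) and striated muscle genes 0 of 6 (39.03%), and by the rule that a count of 0 allows up to 3 counts the shares could reach 37.5% and 50%. Olfactory receptors had 5 of 387 (1.29%, interval 0.553 to 2.99%), among them Olfr876 and Olfr750, and vomeronasal receptors 1 of 187 (Vmn1r43).

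Zinc finger genes of the Zfp series, many of which encode DNA-binding repressors, had few sites at their ends although most had one at a promoter. A promoter site was present at 343 of 394 Zfp genes, and yet 8 of 306 eligible ends (2.61%, interval 1.33 to 5.07%) had a site, such as those of Zfp467, Zfp771 and Zfp618. Among genes with a promoter site, the share was 2.97% (8 of 269) for Zfp genes and 12.7% (1161 of 9151) for the others, a difference of -9.71 points (-11.3 to -6.85). Solute carriers had 28 of 269 (10.4%), keratins 5 of 34 (14.7%), genes with Rab symbols 9 of 45 (20%, interval 10.9 to 33.8%) and ribosomal protein genes 3 of 5.

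**Figure D5:**
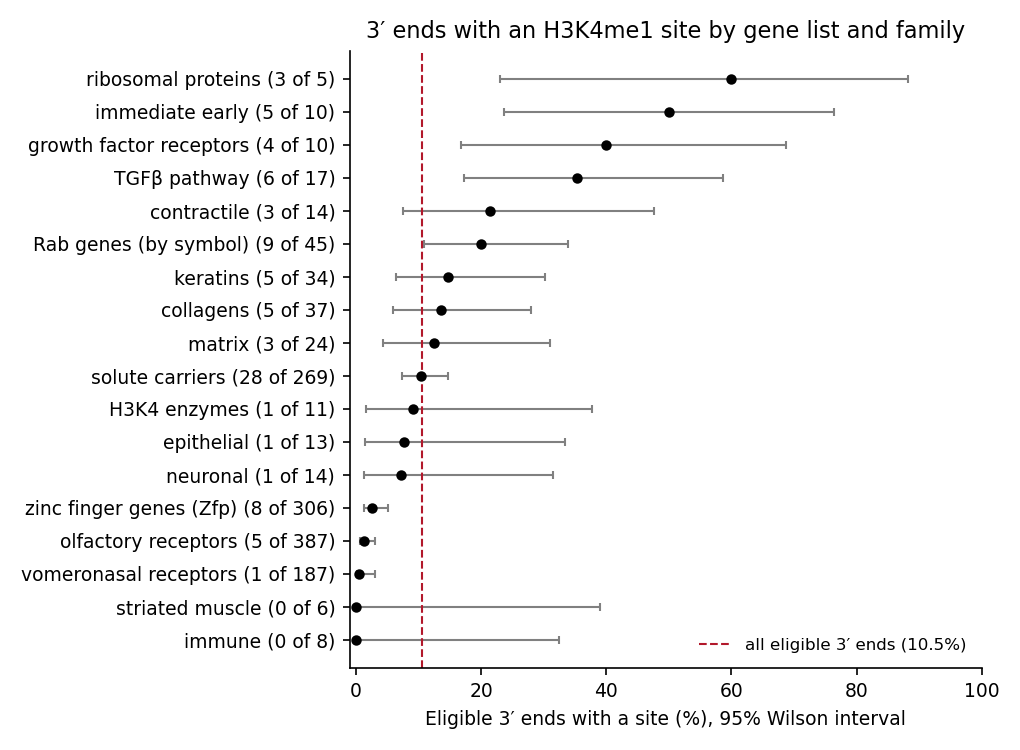
Share of eligible 3′ ends with a site (x axis, %) for the gene lists and families described here (y axis, with its count), with 95% Wilson intervals as error bars and the share of all eligible ends, 10.5%, as a dashed line. Olfactory and vomeronasal receptors and Zfp genes lie wholly below the line, and TGFβ, growth factor receptor, immediate early, Rab and ribosomal protein genes above it.

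The widest sites spanned the end and ran on to both sides. The widest, 7898 bp at Dnajb12 (chr10:59896121-59904018), covered 3182 bp before the end and 4716 bp after it. At Prr7, the second in width, the site was 7578 bp. The site at Socs3 (chr11:117961675-117969143, 7469 bp) covered 3065 bp of a gene of 3969 bp and 4404 bp beyond its end. That at Arid5a (chr1:36321205-36328130) was 6926 bp wide with 4101 bp downstream. Next in width were those at Aak1 (6117 bp; an endocytic kinase), Clec18a (6091 bp), Rpl38 (6063 bp; a ribosomal protein), Trib3 (5848 bp; a stress-induced pseudokinase), L3mbtl1 (5733 bp; a reader of methylated lysines) and 2810006K23Rik (5475 bp). All 10 had bases on both sides of the end, since a wide site centred within 1 kb of the end reaches across it. The limit of 3 kb from a TSS applied to the centre only. The sites at Socs3 and Rpl38 also reached within 1 kb of the TSS of the same gene, and so counted as its promoter site too. The site at Clec18a was centred 3090 bp from a TSS and, at 6091 bp wide, ended close to it.

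The 5 ends with 3 sites each carried narrow sites. They belonged to Kcnmb3 (a potassium channel subunit), Nrsn2, Pth2r (a parathyroid hormone receptor), Rgs5 (a regulator of G protein signalling) and Uts2 (urotensin, a vasoactive peptide), and their sites were 231 to 648 bp wide. At Rgs5 they were centred at -932, 142 and 982 bp from the end, negative being inside the gene.

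Among the longest genes with a site at the end, the gene record itself needs care. The longest record, Gm20388 with 4434882 bp, ends beside Galnt2, a glycosyltransferase gene of 114334 bp, whose end was the nearer one to their common site of 3901 bp. Fgfr2 followed, with a record of 2960900 bp and a site of 1965 bp centred 996 bp downstream. Lsamp (2197319 bp; a neural adhesion molecule), Agbl4 (1266664 bp; a carboxypeptidase acting on tubulin) and Sgcz (1139211 bp; a sarcoglycan) had their sites in the 3′ UTR.

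By chromosome, the ratio of the observed to the placed share ran from 0.777 on chromosome 14 to 1.39 on chromosome X. The share of eligible ends with a site was lowest on X (2.78%, 17 of 612), and it was 15.2% on chromosome 18, where 59 ends were counted from 45 sites because of the shared protocadherin end. On the X chromosome there were also few distal sites of any kind (1664), of which 19 were at 3′ ends.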

How the data were processed

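H3K4me1 ChIP-seq reads of NG3 cells were trimmed, aligned to mm10 with BWA and filtered with samtools by the authors, who then pooled the replicates (Picard) and used Macs for broad peak calling. Versions and thresholds are not given in the sources used here. The deposited values are positions in bases (unit: other), 1 start and 1 end per site in a single set over all samples. Starts are counted from 0 there and from 1 here. The table holds no counts, so the depth per library is unknown and the planned tests between time points were not run. All columns of the table could be mapped.

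Distances, coverage and shares were obtained with scripts in Python 3.11.15 (pandas 2.3.3, numpy 2.4.6, scipy 1.17.1) and plotted by matplotlib 3.10.9. Functions were tested on simulated data. Gene records and 130588 TSS positions of 139486 transcripts were from GENCODE release M21, and the genome sequence was GRCm38 as distributed by RefSeq. The release the paper names, M25, was not used here. Sites on scaffolds were not compared. Random placement was an exact expectation by chromosome, without resampling. Wilson, Newcombe and exact Poisson intervals were at 95%, and the interval for a median came from its order statistics.

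The members and gene lists were chosen with earlier results of these data known. Named genes were those of the lists with a site at the end (up to 6 per list, by width), those at the 10 widest sites, the 5 with the most sites and the 5 longest. Any other name was picked with its values in view, as the text states. Alternatives concerned the window, the TSS limit, the sets of TSSs and ends, site width, merging, the anchor point, the promoter definition and the sequence window. 1 further gene list is not reported here.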

Additional observations from a re-analysis of the deposited data

Results flagged for a closer look

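Outside the chromosomes on which sites were compared with genes, 36 sites lay on scaffolds. They were left out of every comparison above, and with no control samples in a set of positions they are given as a count only.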

How the results depend on the processing

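Of 95 alternatives over 13 results, 58 were counted as unchanged, 34 moved further and 3 turned direction. Unchanged meant within the interval of the reported value or within 1.5 times a count. For the coverage results it meant within the SD over chromosomes of the reported value. For the coverage of the last kb minus the first kb downstream that band was wide, -2.25 to 0.91 points. The causes were not tested beyond the construction of each alternative, such as a larger window holding more sites.

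With a window of 0.5 kb there were 686 sites, 0.592% of distal sites, and 5.02% of ends had one. The ratio to placement was then 0.963, the promoter difference 3.24 points, the length difference -0.26 points, the width difference -1 bp and the density ratio to gene interiors 0.706. With 2 kb there were 3121 sites (2.70%), 18.6% of ends, 12.1 points by promoter and 6.19 by length. Over 1 kb from a TSS the share of distal sites was 1.64%, with 8.19 points by promoter and 0.60 by length. The share was 1.04% over 5 kb from a TSS and 1.42% with TSSs of protein-coding transcripts. With the ends of all protein-coding transcripts there were 2418 sites (2.09%). Sites of at least 500 bp numbered 891 (1.39%), at 6.61% of ends, with 4.03 points by promoter. After merging over gaps under 1 kb, 8.37% of ends had a site, with 4.78 points by promoter, a width difference of 81 bp and a density ratio of 0.842. Counting any base of a site in the window gave 2315 sites (2.00%), a ratio of 1.17, 14.7% of ends and 10.1 points by promoter. With promoters at the most upstream TSS the promoter difference was 5.76 points. AP-1 words were in 5.55% of centres of 100 bp and 19.4% of 400 bp, and the GC content of 400 bp was 49%.

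The share centred inside the gene (43.1 to 47.3%) and the ratio of coverage over the end to its flanks (0.749 to 0.813) kept their direction in all alternatives run for them. The 7 alternatives for that ratio and for shared ends were added after the data had been seen. No paired analysis was possible because the positions carry no value per replicate. For the same reason a count test, another tool, a filter on counts and leaving out replicates were not run. A site that the pooled calling missed, a shallow library or a region to which reads do not map cannot be told apart from the absence of H3K4me1, and neighbouring sites are not independent, so the intervals are too narrow.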
